A study of Mus musculus with 6 samples.

Results

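AP-1 is a family of transcription factors made of pairs of Fos, Jun and related proteins, and 10 of its genes were described here in the hearts of mice on a high-fat diet (HFD) and on normal chow (NC). The genes were taken by name from the 23808 genes of the expression table, and all 10 were found in it: the Fos genes Fos, Fosb, Fosl1 and Fosl2, the Jun genes Jun, Junb and Jund, and the related genes Atf3, Batf and Jdp2. The study compared 3 heart libraries of wild-type female mice fed HFD from 4 to 12 weeks of age with 3 heart libraries of wild-type female mice fed NC over the same weeks. Total RNA was sequenced after an mRNA library preparation, and the values are FPKM, a fragment count corrected for gene length and for the size of the library, so that levels can be set side by side between genes. What the diets contained, which parts of the heart were taken and whether each library came from a separate animal or a pool are not given in the labels, and a p-value here speaks of the spread among the libraries, part of which may be technical. The comparison addresses how a high-fat diet alters gene expression in the heart. Values listed per diet follow the numbers of its libraries, 1 to 3.

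All members carry a basic region that contacts DNA and a leucine zipper that joins the partners of a dimer. Fos proteins need a Jun partner to bind DNA stably, whereas Jun proteins can also pair with each other. The complex binds the TPA response element (TRE, TGACTCA or TGAGTCA). With ATF-type partners it binds the cyclic AMP response element (CRE, with the core TGACGT). Fos, Fosb, Jun, Junb and Atf3 are classed as immediate early genes, whose transcripts are made within minutes of a stimulus and decay quickly. In the heart they are known to respond to stretch, adrenergic drive and reperfusion. Jund is known as the member with the steadiest expression in resting tissue.

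Promoter sequences are shown for Fos, Fosb and Junb, the members with the largest differences between the diets, and for Jun, whose libraries overlapped. Each runs from 250 bases before to 50 bases after the transcript start that RefSeq gives on GRCm38.p6, 5′ to 3′ on the gene's own strand, and capitals mark the motifs found. The windows are chr12:85473640-85473939 on the plus strand for Fos, chr7:19309996-19310295 on the minus strand for Fosb, chr8:84978699-84978998 on the minus strand for Junb and chr4:95052173-95052472 on the minus strand for Jun.
Fos: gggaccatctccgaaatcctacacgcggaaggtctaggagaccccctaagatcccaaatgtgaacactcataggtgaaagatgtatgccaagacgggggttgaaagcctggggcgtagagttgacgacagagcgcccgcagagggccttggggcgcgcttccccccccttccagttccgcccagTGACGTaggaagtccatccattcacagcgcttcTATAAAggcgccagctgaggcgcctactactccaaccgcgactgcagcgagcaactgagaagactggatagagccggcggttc
Fosb: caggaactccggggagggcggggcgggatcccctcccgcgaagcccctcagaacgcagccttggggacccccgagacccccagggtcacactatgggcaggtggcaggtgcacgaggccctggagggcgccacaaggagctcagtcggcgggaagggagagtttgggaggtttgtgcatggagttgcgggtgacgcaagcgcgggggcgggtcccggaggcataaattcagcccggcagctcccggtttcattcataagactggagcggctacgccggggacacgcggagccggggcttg
Junb: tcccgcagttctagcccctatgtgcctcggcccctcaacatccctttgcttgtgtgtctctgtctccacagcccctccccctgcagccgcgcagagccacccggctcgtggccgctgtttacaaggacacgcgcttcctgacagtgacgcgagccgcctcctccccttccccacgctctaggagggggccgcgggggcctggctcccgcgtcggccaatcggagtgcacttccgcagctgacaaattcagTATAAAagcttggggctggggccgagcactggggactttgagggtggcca
Jun: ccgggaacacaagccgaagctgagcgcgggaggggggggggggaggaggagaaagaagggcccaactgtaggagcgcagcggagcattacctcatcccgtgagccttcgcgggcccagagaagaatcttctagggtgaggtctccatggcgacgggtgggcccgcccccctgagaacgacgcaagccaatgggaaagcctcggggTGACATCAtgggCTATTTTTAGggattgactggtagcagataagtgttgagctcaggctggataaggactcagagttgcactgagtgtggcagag

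Both strands were searched for the CArG box (the core of the serum response element), the CRE core TGACGT, the TRE as TGANTCA, the TATA box as TATAAA, TGACATCA (a TRE-like element known from the Jun promoter) and the MEF2 site. The pattern TGANTCA is wider than the TRE, as it also admits A or T in the middle. The MEF2 site and the TATA box can overlap. The Fos window held a CRE core starting 66 bases before the transcript start and a TATA box starting 33 bases before it. The Junb window held TATAAA at its RefSeq transcript start, and the GENCODE start of Junb lies 30 bases downstream of that start. The Jun window held TGACATCA starting 45 bases and a MEF2 site starting 33 bases before its start. No searched motif lay in the Fosb window. Over all 32851 promoter windows of RefSeq, 7.51% held the CRE core, 13.6% TATAAA and 3.62% TGACATCA. A MEF2 site was found in 3.19%, TGANTCA in 7.81% and a CArG box in 1.63%. Of the 9 members with a window, 4 (Fos, Atf3, Batf and Jdp2) held a CRE core. Neither a TRE nor a CArG box was found in any of the 11 windows of these 9 members. Bases outside the windows were not searched. Whether Fos or another member has a CArG box or a TRE beyond its window therefore cannot be read from these counts. Fosl1 had no entry. The RefSeq start of Jund lies 1210 bases away from the GENCODE start of the gene, and its window is therefore not shown. For Atf3 that distance is 34706 bases, so the CRE core counted for it is placed by the RefSeq start alone. These matches describe letters in the windows and nothing about binding in these hearts.

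Jund had the highest level of the family in both diets, at 63.2 ± 17.4 FPKM on HFD and 101 ± 36.2 FPKM on NC (SD, n = 3 each). On NC it was followed by Fos at 48.8 ± 19.1 and Junb at 46.4 ± 18.9 FPKM, whose ranges overlapped, and then by Jun at 14.8 ± 3.74 FPKM (SD, n = 3 each). On HFD, Junb at 17.3 ± 8.58, Jun at 11.6 ± 4.36 and Fos at 11.3 ± 7.28 FPKM (SD, n = 3 each) lay within the spread of each other, so that Fos had rank 4 of the 10 members on HFD and rank 2 on NC. Jdp2 lay below Jun and above Fosl2 in every library. Fosl2 and Atf3 overlapped in both diets, Fosb lay below Atf3 on HFD and overlapped it on NC, and Batf and Fosl1 were near or under 1 FPKM.

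**Figure D1:**
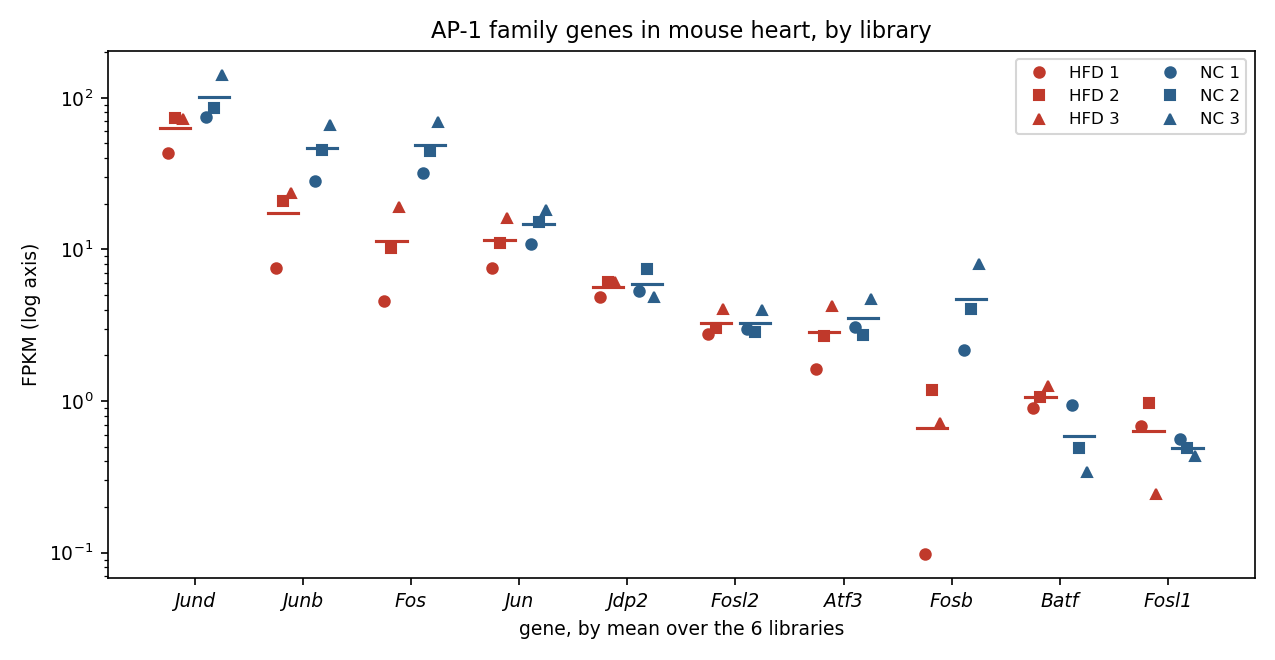
FPKM (log axis) of the 10 AP-1 genes in each heart library, with HFD in red left of NC in blue; symbols mark the library number and bars the diet means (n = 3). The HFD points lie below the NC points for Fos, Fosb, Junb and Jund, and HFD 1 is the lowest library for 7 of the 10 genes.

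Among the Fos genes, Fos and Fosb separated the diets and Fosl1 and Fosl2 did not. Fos, the founding member, was at 4.6, 10.3 and 19.0 FPKM on HFD, against 32, 44.8 and 69.6 FPKM on NC. The highest HFD library was below the lowest NC library, and the HFD mean was 76.8% lower than the NC mean. The log2(FPKM + 1) difference of Fos was −2.13 (SE 0.40, 95% interval −3.01 to −1.25), and it ranked number 5 by p among the 11456 tested genes but did not pass over all of them (limma, unadjusted p = 0.000193, Benjamini-Hochberg adjusted p = 0.352). In bulk tissue, fewer cells that express a gene and less RNA per cell cannot be told apart.

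Fosb, a paralog of Fos known for stable truncated forms in the brain, was at 0.0983, 1.18 and 0.713 FPKM on HFD, against 2.17, 4.06 and 8.0 FPKM on NC. All HFD values were under the lowest NC value, and Fosb reached the filter of a mean of 1 FPKM through its NC libraries. The log2(FPKM + 1) difference was −1.71 (SE 0.36, limma adjusted p = 0.426), and the pseudocount compresses it at this low level: with a pseudocount of 0.1 it was −2.84. Fosl2, which encodes Fra-2, a Fos protein without the strong transactivation domain of Fos, was at 2.77, 3.03 and 4.06 FPKM on HFD, against 2.98, 2.87 and 3.98 FPKM on NC. Its libraries interleaved, and the 95% interval of its log2 difference, −0.50 to 0.50, leaves room for a change of that size in either direction. Fosl1, which encodes Fra-1, was at 0.683, 0.976 and 0.245 FPKM on HFD, against 0.560, 0.489 and 0.432 FPKM on NC, below the filter, and it was not tested. Of the 2033 exonic bases of Fosl1, 1163 are shared with Ccdc85b on the opposite strand, which was at 27.8 to 59.9 FPKM on HFD and 38.1 to 52.2 FPKM on NC. No source used here says whether counting was strand-specific, and without strand the reads of such a pair cannot be told apart.

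Of the Jun genes, Junb and Jund separated the diets and Jun did not. Junb, a Jun protein that can restrain transactivation by Jun, was at 7.58, 20.8 and 23.7 FPKM on HFD, against 28.2, 45.0 and 65.9 FPKM on NC. No HFD library reached the lowest NC library, and the HFD mean was 62.6% lower. The log2 difference of Junb was −1.43 (SE 0.39, limma unadjusted p = 0.0032, adjusted p = 0.885), and it was −0.95 without HFD 1. Exons of Junb share 173 of its 2301 bases with Prdx2 on the opposite strand, which was at 181 to 218 FPKM on HFD and 210 to 247 FPKM on NC.

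Jund was at 43.1, 74.0 and 72.5 FPKM on HFD, against 74.6, 85.8 and 142 FPKM on NC. HFD 2 and NC 1 almost touched, and the log2 difference of −0.65 (SE 0.28, limma unadjusted p = 0.0406, adjusted p = 1.0) was −0.40 without HFD 1 (unadjusted p = 0.186) and −0.38 without NC 3 (unadjusted p = 0.193). The separation of its libraries was lost when the values were scaled to nuclear genes, by the median of ratios or by quantiles. The antisense gene Gm11175 shares 877 of the 1668 exonic bases of Jund. Its FPKM on HFD was 8.85 in HFD 2, with 0 listed for the other libraries of that diet, against 1.55, 8.68 and 24.9 FPKM on NC, and its part in the Jund values was not tested. Jun, the main transactivating partner of Fos, was at 7.53, 11 and 16.2 FPKM on HFD, against 10.8, 15.2 and 18.3 FPKM on NC. These ranges overlapped (log2 difference −0.36, SE 0.28, 95% interval −0.98 to 0.26, limma adjusted p = 1.0). Leaving out HFD 1 moved the Jun difference to −0.11.

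The ATF-type members and Batf did not separate the diets. Atf3, a stress-induced repressor, was at 1.63, 2.69 and 4.24 FPKM on HFD, against 3.06, 2.74 and 4.72 FPKM on NC (log2 difference −0.26, SE 0.29, 95% interval −0.88 to 0.36). HFD 1 was the lowest library of Atf3, and without it the difference was −0.01. Jdp2, a Jun-binding repressor, was at 4.88, 6.06 and 6.06 FPKM on HFD, against 5.31, 7.47 and 4.87 FPKM on NC, with a log2 difference of −0.03 (SE 0.23, 95% interval −0.53 to 0.47). Batf, a lymphoid factor that pairs with Jun proteins, was at 0.895, 1.07 and 1.25 FPKM on HFD, against 0.938, 0.493 and 0.340 FPKM on NC. It was below the filter, its libraries overlapped through HFD 1 and NC 1, and it was the member with the highest mean on HFD relative to NC, at a ratio of 1.81.

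In 4 of the 10 members, Fos, Fosb, Junb and Jund, every HFD library lay below every NC library. This was so for 4.88% of all tested genes, and no member had the reverse order, which 3.25% had. Fosb reached the filter through its NC libraries, so its place in that count is no support. The shares are over tested genes, while the 10 members include Fosl1 and Batf, which were not tested. In all, 7 of the 10 had a log2 difference below 0, as did 53.1% of tested genes. In a fit without the filter, which tests all 10 members, 3 of them (Fos, Fosb and Junb) had an unadjusted limma p under 0.05 with HFD lower, against 2.11% of 22234 genes. Leaving out HFD 1 gave non-overlap in 5 members, with Batf added and HFD above NC there, and leaving out HFD 3 gave it in 6, with Fosl1 (HFD above NC) and Atf3 (HFD below NC) added. Fewer libraries separate more easily, and the share of all tested genes without overlap was not computed with 1 library left out. These larger counts are therefore not read as a result about the members. The median log2 difference of the 10 members was −0.31, beside −0.02 over all tested genes. It was −0.059 without HFD 1, −0.17 without NC 3 and −0.56 without HFD 3. No member and none of the 11456 genes passed an adjusted p of 0.05 with limma (0% called), while 415 genes had an unadjusted p under 0.05, 3.62% of those tested. Of these 415 genes 63.6% were lower on HFD. After scaling to nuclear genes 571 genes had such a p and 35.7% of those were lower, while Fos, Fosb and Junb stood at log2 differences of −2.10, −2.05 and −1.37 under that scaling.

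**Figure D2:**
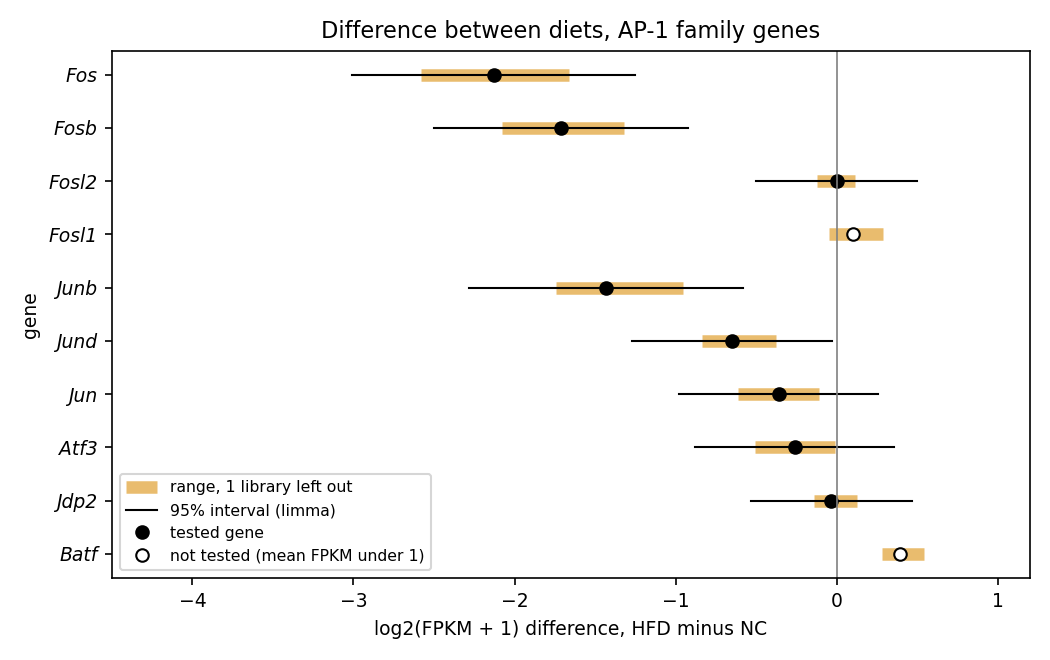
Difference in log2(FPKM + 1), HFD minus NC, for each AP-1 gene (points), with the 95% interval from limma (thin lines, tested genes) and the range when 1 library is left out (bands). Fos, Fosb and Junb lie furthest below 0, at −2.13, −1.71 and −1.43, and the bands of Fosl1, Fosl2 and Jdp2 cross 0.

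The summed FPKM of the 10 genes was 73.8, 131 and 148 on HFD, against 161, 209 and 318 on NC, and the makeup of that sum also separated the diets. Shares and ratios within a library do not change when all its values are multiplied by a factor. The Fos genes made up 11 to 16.3% of that sum on HFD and 23.4 to 25.8% on NC, and the share of Fos alone was 6.23 to 12.9% on HFD and 19.9 to 21.9% on NC. Jund took the larger share on HFD, 49.0 to 58.4%, against 41.1 to 46.5% on NC. For each unit of Jund there was 0.107 to 0.263 of Fos on HFD, against 0.428 to 0.522 on NC, and 0.176 to 0.326 of Junb on HFD, against 0.378 to 0.524 on NC. Fos was below Junb in every HFD library, at ratios of 0.496 to 0.805, and close to it on NC, at 0.995 to 1.13. The ratio of Jun to Junb ran the other way, at 0.529 to 0.994 on HFD and 0.277 to 0.384 on NC. These ratios follow from the same values as the single genes and were not tested.

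**Figure D3:**
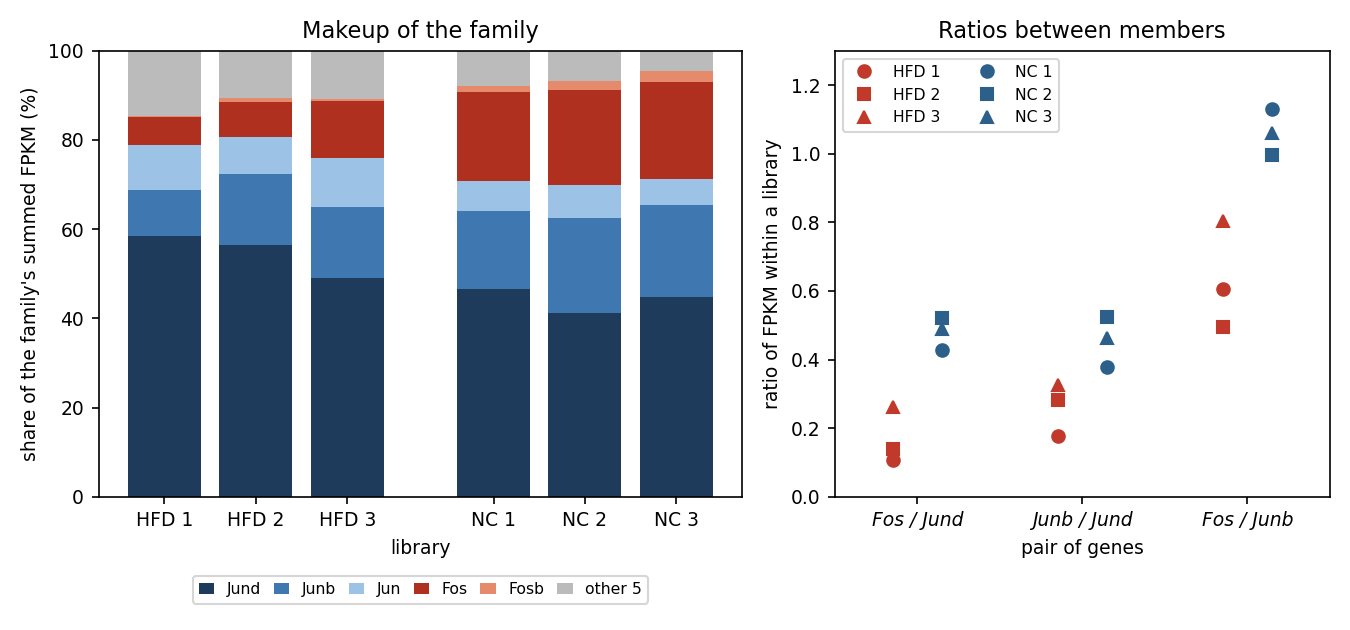
Left, share of the summed FPKM of the 10 AP-1 genes in each library, with HFD left of NC; other 5 are Fosl1, Fosl2, Atf3, Batf and Jdp2. Right, ratios of FPKM between members within a library, HFD in red left of NC in blue: the Fos to Jund ratio is 0.107 to 0.263 on HFD and 0.428 to 0.522 on NC.

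Within a diet, the libraries with the lowest and highest values were often the same across members. HFD 1 was the lowest of the HFD libraries for 9 of the 10 members, and HFD 3 the highest for 7, whereas NC 3 was the highest of the NC libraries for 7. The share of all genes with these orders was not computed, so they are not read as a trait of the family. HFD 1 also had the lowest summed FPKM, 576334 against 687877 to 739406 in the other libraries, and 4 mitochondrially encoded genes listed at 0. The hearts showed cardiomyocyte genes, with 10 marker genes summing to 24760 to 27612 FPKM on HFD and 27638 to 36663 FPKM on NC. Of 12 marker lists, 4 had lower sums in every HFD library: cardiomyocyte, smooth muscle and pericyte, macrophage and lymphocyte markers. The cardiomyocyte ranges nearly met, as did those of smooth muscle and pericyte (207 to 267 FPKM on HFD, 267 to 345 on NC). Macrophage markers summed to 158 to 205 FPKM on HFD and 214 to 320 on NC. For lymphocyte markers the sums were 2.79 to 3.51 on HFD and 3.60 to 5.65 on NC. In these lists of 10 markers each, 2, 2, 3 and 0 had every HFD library below every NC library, beside 4.88% of all tested genes. In the other direction, 1 lymphocyte marker had every HFD library above, beside 3.25% of tested genes. The lymphocyte markers Cd3d and Cd8a were at 0 in some libraries. The other 8 lists overlapped between the diets. Among those 8, endothelial markers summed to 1088 to 2034 FPKM on HFD and 918 to 1380 on NC. Adipocyte markers summed to 667 to 1381 FPKM on HFD and 479 to 945 on NC. Atrial markers summed to 1683, 528 and 7472 FPKM on HFD, against 3803, 539 and 14313 FPKM on NC, and a list of 5 structural RNAs to 184, 830 and 1705 FPKM on HFD and 229, 180 and 900 FPKM on NC. With the mean of the structural RNAs as a covariate Fos, Fosb and Junb passed (limma adjusted p = 0.00081, 0.0351 and 0.0217, 8 genes in all), and with that of the atrial markers no member did. All 8 genes were lower on HFD. Under the structural RNA covariate 65.3% of all tested genes were lower on HFD, against 53.1% without it. An unadjusted limma p under 0.05 was then found for 903 genes, 80.1% of them lower, so the shift was not particular to the members. The part of these differences between libraries in the AP-1 values was not tested further.

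Genes that feed into AP-1 had differences around 0. Of 25 kinases of the MAP kinase cascades and kinases acting on Fos or Jun, 24 were tested, none had an unadjusted limma p under 0.05, and their median log2 difference was −0.01, with values from −0.26 to 0.28. The 13 factors known to act at the Fos and Jun promoters, such as the serum response factor Srf and the CRE-binding factor Creb1, had a median of 0.00 and none under that p. Among them Elk3, a ternary complex factor, was at 12.8, 14.9 and 11.5 FPKM on HFD, against 20.1, 13.9 and 14.3 FPKM on NC. In 1 gene of each of these lists every HFD library lay above every NC library, beside 3.25% of tested genes. These were the coactivator of Srf, Mrtfb, at 3.25, 3.23 and 3.97 FPKM on HFD, against 3.06, 2.28 and 3.05 FPKM on NC (log2 difference 0.24, SE 0.22), and the ERK-activated kinase gene Rps6ka1, at 2.34, 2.82 and 2.58 FPKM on HFD, against 2.22, 1.62 and 2.26 FPKM on NC (log2 difference 0.24, SE 0.22). Of 11 other bZIP partners 8 were tested, with a median of 0.02, and Atf7, a CRE-binding relative of Atf2, had the smallest p, at 4.71, 7.84 and 7.97 FPKM on HFD, against 6.83, 10.1 and 9.66 FPKM on NC (log2 difference −0.34, SE 0.25).

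Negative regulators and target genes of AP-1 went both ways. Of 12 tested phosphatases, decay factors and other negative regulators, 2 had an unadjusted limma p under 0.05, both lower on HFD, beside 2.3% of all tested genes, and 7 of 12 had a lower mean log2 level (median −0.09). These were Dusp2, a nuclear MAP kinase phosphatase, at 0.403, 0.233 and 0.607 FPKM on HFD, against 2.66, 0.653 and 2.73 FPKM on NC, and Zfp36, the mRNA decay factor tristetraprolin, at 7.71, 13.6 and 13.5 FPKM on HFD, against 16.2, 16.1 and 29.4 FPKM on NC. Dusp2 reached the filter through its NC libraries, at a mean of 0.414 FPKM on HFD and 2.01 FPKM on NC, so its place in that count is no support. Both are themselves early response genes, and both lay lower in every HFD library, as 4.88% of tested genes did. Dusp1, a stress-induced phosphatase of the same family, overlapped, at 42.8, 72.7 and 77.3 FPKM on HFD, against 64.8, 87.8 and 112 FPKM on NC. Of 20 textbook AP-1 targets 13 were tested, none under an unadjusted p of 0.05, with a median of 0.01. The chemokine gene Ccl2 lay below every NC library in all 3 HFD libraries (1.33, 2.13 and 1.77 FPKM on HFD, against 2.25, 2.61 and 3.32 FPKM on NC). Mmp3, a matrix protease, overlapped and had a log2 difference of −0.76 (SE 0.38).

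Among 20 immediate early genes outside the family, 14 were tested. An unadjusted limma p under 0.05 was found for 4 with HFD lower, Egr1, Ier2, Ccn1 and Btg2, and for 1 with HFD higher, Csrnp1, beside 2.3% and 1.32% of all tested genes in these directions. Csrnp1, a nuclear factor induced by axin, was at 6.81, 5.62 and 6.66 FPKM on HFD, against 3.99, 1.85 and 3.99 FPKM on NC. The zinc finger factor Egr1 was at 3.94, 9.78 and 15.8 FPKM on HFD, against 18.6, 25.6 and 37.4 FPKM on NC (log2 difference −1.50, SE 0.39). No gene of any of the 6 lists passed an adjusted p of 0.05 with limma (0% called).

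**Figure D4:**
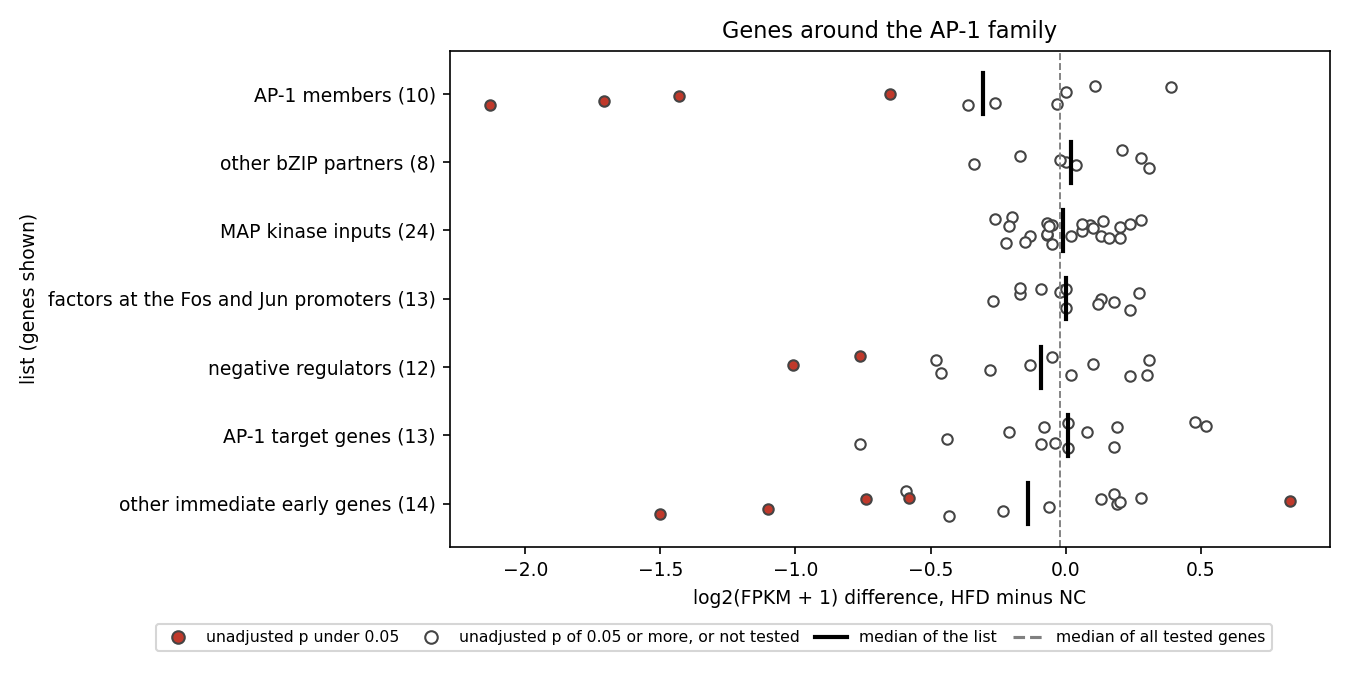
Difference in log2(FPKM + 1), HFD minus NC, of single genes in the AP-1 family (10 members) and in 6 lists around it (tested genes), with the median of each list as a bar; filled points have an unadjusted limma p under 0.05. The family's median is −0.31, and those of the MAP kinases and promoter factors are −0.01 and 0.00.

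The genes whose log2(FPKM + 1) followed that of Fos most closely over the 6 libraries, outside the family, were the predicted gene Gm10291 (Pearson r = 0.992), the pacemaker channel gene Hcn2 (0.991), Lrrc4b (0.990), the mitochondrial import pore gene Tomm40 (0.990) and Egr1 (0.989). After subtracting each diet's mean these correlations with Fos were 0.967, 0.972, 0.967, 0.970 and 0.995. Within the family, Junb correlated with Fos at 0.970 over the libraries (0.950 within diets) and Jun at 0.830 (0.987 within diets), whereas Jdp2 stood at 0.200 (0.247 within diets). These are descriptions over 6 libraries that share their scaling, picked as the highest of 11456 genes. Hcn2 was at 1.76, 2.26 and 3.59 FPKM on HFD, against 4.19, 4.69 and 5.80 FPKM on NC.

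By the GENCODE annotation of mm10, 3 members lie next to each other on the plus strand of chromosome 12: Fos at 85473890 to 85477273, Jdp2 at 85599027 to 85639878 and Batf at 85686669 to 85709087. The gaps are 121.8 kb and 46.8 kb, and the values of these neighbours differed, with log2 differences of −2.13 for Fos, −0.03 for Jdp2 and 0.39 for Batf. Junb and Jund are both on chromosome 8, 14.3 Mb apart. Jun and Jund each have a single annotated transcript of 1 exon, and transcripts of Fos have 3 to 4 exons. Jun lies on chromosome 4 at 95049034 to 95052222 and shares 232 exonic bases with the antisense gene Junos, which was at 0 to 0.640 FPKM on HFD and 0 to 0.455 FPKM on NC. All 10 members are protein-coding genes.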

How the data were processed

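FPKM values per gene and library were deposited by the authors, and no source used here says which program made them, how deep the libraries are or whether strand was used. Per the submitters' processing notes, which give no roles, the build was mm10 and the tools were HISAT2 2.2.1, Trimmomatic 0.38, FastQC 0.11.9, DESeq2 1.18.1, HTSeq 0.13.5 and R 3.4.1. Gene identifiers were matched to symbols for 23718 of 23808 genes. Steps that 1 read would leave were looked for in values under 0.3 FPKM: the commonest ratio to NC 1 held, within 0.02 on the log2 scale, 2.59 to 5.32% of genes, so no read counts were recovered, no count test was run and no counting interval is given. Values were compared as log2(FPKM + 1), which understates changes of low genes, over the 11456 genes that averaged 1 FPKM or more, with limma 3.58.1 in R 4.3.3 (eBayes with trend, two-sided, Benjamini-Hochberg adjustment, threshold 0.05, no covariate). The fit was tested on simulated data. Fosl1 and Batf were under the filter. All 10 members were described whatever their values, with up to 4 genes of the smallest p from each list and the 5 genes most correlated with Fos. Of the genes taken from the lists, 1 is not reported here. The members and lists were chosen with earlier results of these data known. Other pseudocounts, filters, scalings, eBayes settings, covariates, a replicate block and leaving out each library were tried. Promoters come from RefSeq on GRCm38.p6, coordinates from GENCODE on mm10, and plots from matplotlib 3.10.9 in Python 3.11.15.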

Additional observations from a re-analysis of the deposited data

How the results depend on the processing

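Fos, Fosb, Jun, Junb, Jund, Atf3 and Batf kept the direction of their difference under all 19 alternatives. Leaving out 1 library gave log2 differences of −2.58 to −1.66 for Fos, −2.08 to −1.32 for Fosb, −1.74 to −0.951 for Junb and −0.837 to −0.377 for Jund, and −0.124 to 0.116 for Fosl2, −0.139 to 0.126 for Jdp2 and −0.0443 to 0.289 for Fosl1. Fosl2 turned to −0.142 with the structural RNA covariate and to −0.00044 after quantile normalization, and Jdp2 to 0.0469 after scaling to nuclear genes. Batf moved to 0.844 with a pseudocount of 0.1. The count of members without overlap was 3 to 4 over the other settings and 4 to 6 with 1 library left out, where fewer libraries separate more easily. Batf replaced Jund after scaling to nuclear genes and by the median of ratios. Overlap was not computed with a covariate or the block. Between 0 and 1 genes passed when 1 library was left out, the 1 without NC 2. The atrial covariate gave 1 gene and the structural RNA covariate 8, with Fos at −2.67, Fosb at −2.06 and Junb at −1.91. Under the structural RNA covariate the median over all tested genes was −0.0963, beside −0.0189 in the main fit. The cause was not tested.

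Libraries with the same number in both diets deviated from their diet means with correlations of 0.193, 0.0864 and 0.275. Those with different numbers ran from −0.361 (HFD 1 with NC 3) to 0.251 (HFD 1 with NC 2). These values do not settle whether the numbers mark pairs. The labels do not say so either, and the main fit used no pairing. With the replicate block 73 genes passed, 51 of them lower on HFD, among them Fos (−2.13), Fosb (−1.71) and Junb (−1.43), with 2 residual degrees of freedom per gene. The limma adjusted p of Fos ran from 1.15e-12 with the block to 1.0 over the alternatives. The smallest adjusted p of any gene with the block was 1.42e-93. Values that small are not credible from 6 libraries with 2 residual degrees of freedom per gene. The p-values of the block and its count of 73 genes are therefore not read as support. Depth is unknown, so no limit from counting can be given.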
